A study of Homo sapiens with 6 samples.

Results

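The genes described here are the D-type cyclins, their kinase partners CDK4 and CDK6, the inhibitors of those kinases and the retinoblastoma gene RB1, the core of the switch that commits a cell to DNA replication. A list of 10 genes was taken: CCND1, CCND2, CCND3, CDK4, CDK6, CDKN1A, CDKN1B, CDKN2A, CDKN2C and RB1. A probe set of the platform annotation was assigned to 9 of them, each gene having 1, among 18417 genes in all. CDKN2C, which encodes the CDK4/6 inhibitor p18, was not analysed here.

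A673 and SK-N-MC are established Ewing sarcoma lines, tumour cells in which a fusion of EWSR1 with an ETS factor gene acts as the driving transcription factor. Each line was transfected with an siRNA against DKK2 (siDKK2), with one against ITM2A (siITM2A), or with a control siRNA, and each of these 6 cultures was read on 1 Affymetrix array. The DKK2 protein is secreted and modulates Wnt signalling, and ITM2A is a membrane protein. The ITM2A siRNA carries the number 7 in the A673 label and 1 in the SK-N-MC label, so the lines may not have received the same oligonucleotide. Values are log2 RMA values: a step of 1 is 2-fold, and levels of different probe sets cannot be set against each other.

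In this pathway a mitogen signal raises a D cyclin, the cyclin joins CDK4 or CDK6, and the complex phosphorylates the RB protein, which then releases the E2F transcription factors that drive S-phase genes. The INK4 inhibitors, among them p16 from CDKN2A, bind CDK4 and CDK6 directly, whereas p21 (CDKN1A) and p27 (CDKN1B) act mainly on CDK2 complexes and also help to assemble cyclin D with its kinase. CCND1 is known to be highly expressed in Ewing sarcoma and is a classic Wnt target in other tissues. CDKN2A makes a second product, ARF, from another first exon. A673 is recorded as having lost CDKN2A, which was not measured here.

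The siRNA targets and the lines were checked first. DKK2 stood at 7.73 with siDKK2 against 8.64 with control in A673, and at 6.50 against 8.01 in SK-N-MC, a fitted difference of -1.21 ± 0.17 that did not pass (limma, adjusted p = 0.209). ITM2A stood at 5.03 with siITM2A against 8.52 with control in A673, and at 6.10 against 9.48 in SK-N-MC (-3.44 ± 0.17, limma, adjusted p = 0.000442). Array medians ran from 3.35 to 3.44, and arrays of a line correlated at 0.986 to 0.991 over all probe sets, against 0.959 to 0.965 between lines. Of 9 Ewing sarcoma markers analysed, 7 (A673) and 8 (SK-N-MC) lay above the median level of all genes (4.04), CD99 highest of them at 10.66 and 9.82. Means of blood and endothelial markers over the arrays of a line lay between 1.90 and 2.85, with 0 of 10 above that median. Of 5 epithelial markers only KRT14 had line means above it, at 4.11 (A673) and 4.43 (SK-N-MC). Of 5 fibroblast markers, 3 passed as lower in A673 than in SK-N-MC (60%, beside 14.7% of all genes). These were FAP at 2.44 against 5.83, DCN at 2.20 against 4.53 and COL1A2 at 7.66 against 9.15. LUM, at 1.999 against 1.969, and PDGFRA, at 2.17 against 2.34, did not pass and lay below that median in both lines. The mean of the 5 fibroblast markers was 3.23 to 3.34 over the A673 arrays and 4.61 to 4.94 over the SK-N-MC arrays. The part of this difference in the line results below was not tested.

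Because CDKN2A separates the lines, the 250 bases before each of its 2 transcription starts are shown, from RefSeq on GRCh38.p14, minus strand, 5′ to 3′. Capitals mark every CG pair, the site of DNA methylation, which is a known route of CDKN2A silencing in tumours. Methylation was not measured here.

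CDKN2A, ARF start, chr9:21995325-21995574: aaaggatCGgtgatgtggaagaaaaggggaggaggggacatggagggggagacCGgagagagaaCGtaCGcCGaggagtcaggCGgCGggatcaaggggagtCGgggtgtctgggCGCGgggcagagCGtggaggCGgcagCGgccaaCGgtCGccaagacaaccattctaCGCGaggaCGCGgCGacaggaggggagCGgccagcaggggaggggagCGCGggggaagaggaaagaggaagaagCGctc
CDKN2A, p16 start, chr9:21974858-21975107: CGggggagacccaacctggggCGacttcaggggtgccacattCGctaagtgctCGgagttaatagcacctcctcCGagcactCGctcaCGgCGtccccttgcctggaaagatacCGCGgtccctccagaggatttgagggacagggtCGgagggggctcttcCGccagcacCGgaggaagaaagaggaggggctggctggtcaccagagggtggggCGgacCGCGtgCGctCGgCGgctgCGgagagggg

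The ARF start has 24 CG pairs in this window and the p16 start 20, against a median of 11 over 35116 RefSeq promoters, 32.4% of which have 20 or more. Such counts are not particular to CDKN2A among the analysed members. CDKN1A has 27, CDKN1B 27, CDK6 30 and 23 at its starts, and CCND3 26, 26 and 3. CDK4 has 19 and RB1 0. The single CDKN2A probe set, 8160441, lists accessions of both products, so p16 and ARF could not be separated.

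A673 and SK-N-MC differed most in CCND2 and CDKN2A, which were both far lower in A673. CCND1, CDK6 and CDKN1A were higher in A673 and CCND3 was lower. CDK4, CDKN1B and RB1 did not pass the test. In a limma fit with siRNA as a block, 3 of the 9 members passed an adjusted p of 0.05 as higher in A673 and 3 as lower. Of all 18417 genes, 13.8% passed as higher and 14.7% as lower. All A673 arrays lay above all SK-N-MC arrays for 3 members and below them for 3, beside 18.1% and 20.8% of all genes. The 3 arrays of a line carried different siRNAs, and the block takes out the mean effect of each siRNA. The p-values thus weigh the line difference against how far it varied between siRNAs, moderated over all genes. RNA came from whole cultures, in which fewer expressing cells and less RNA per cell cannot be told apart.

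**Figure D1:**
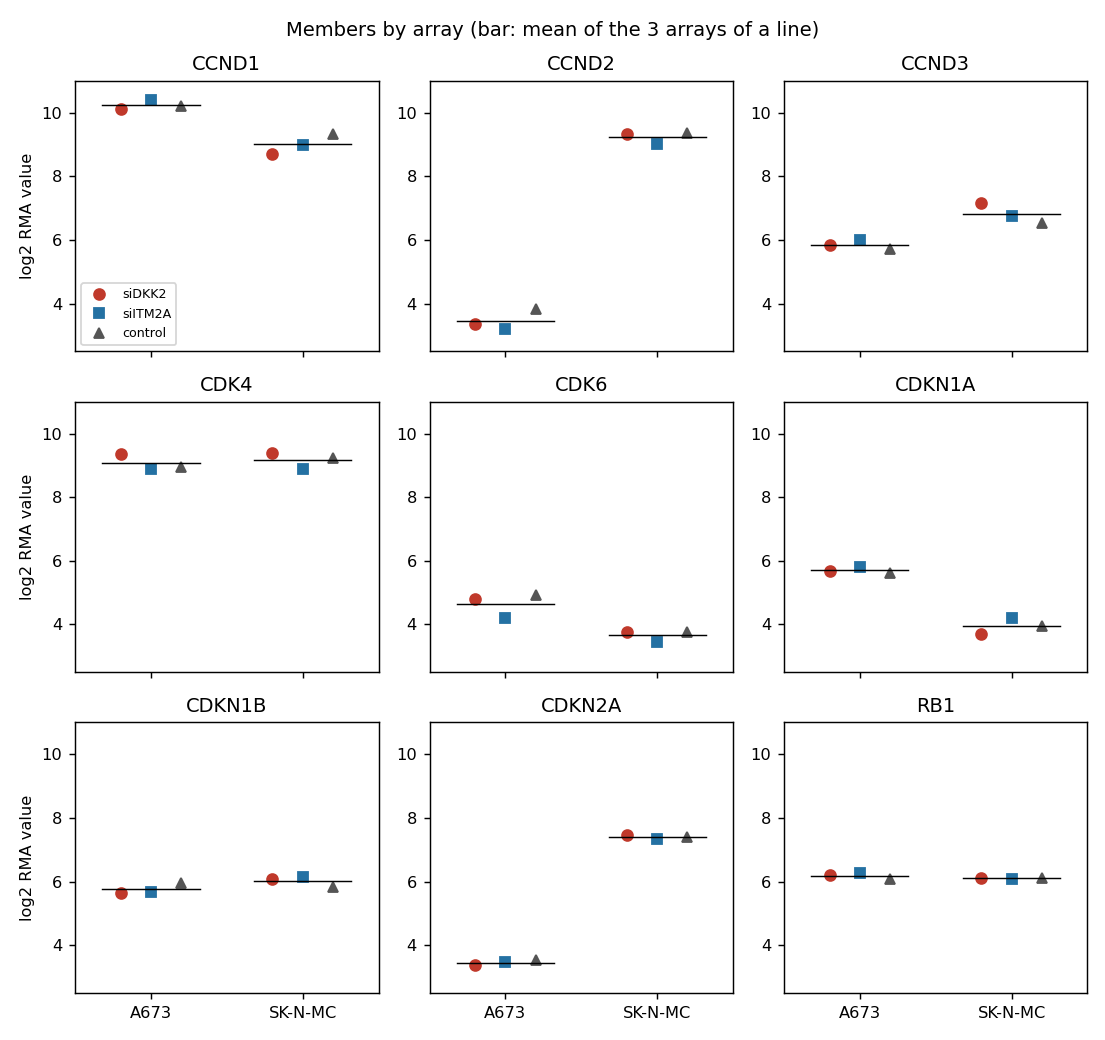
Log2 RMA value (y axis) of the 9 analysed members on each of the 6 arrays, grouped by line (x axis), with siDKK2, siITM2A and control siRNA as red circles, blue squares and grey triangles and the mean of a line's 3 arrays as a bar. CCND2 lies at 3.21 to 3.82 in A673 and at 9.03 to 9.35 in SK-N-MC, and CDKN2A at 3.36 to 3.52 and 7.35 to 7.46.

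Among the D cyclins, CCND2 showed the widest gap. CCND2 (probe set 7953200, chromosome 12) stood in A673 at 3.37 with siDKK2, 3.21 with siITM2A and 3.82 with control, and in SK-N-MC at 9.32, 9.03 and 9.35 in the same order. The groups were more than 5 log2 units apart and did not overlap. The fitted difference of -5.77 ± 0.12 (SE, n = 3 arrays per line) is 54.5-fold lower in A673 (limma, adjusted p = 1.7e-07), the fifth largest of all genes by size, rank 5 of 18417. The A673 values lay near the array medians, and since RMA compresses differences of dim probe sets and background was not measured, the fold may understate the gap.

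CCND1 went the other way. CCND1 (probe set 7942123, chromosome 11) stood in A673 at 10.12 with siDKK2, 10.40 with siITM2A and 10.20 with control, and in SK-N-MC at 8.71, 8.98 and 9.34. Every A673 array lay above every SK-N-MC array, by at least 0.77. The difference of 1.23 ± 0.14 is 2.35-fold higher in A673 (limma, adjusted p = 0.000237). Its value spread more among the SK-N-MC arrays (SD 0.32, n = 3) than among the A673 arrays (SD 0.15, n = 3).

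CCND3, the most widely expressed D cyclin in adult tissues, followed CCND2 in direction and was far closer between the lines. CCND3 (probe set 8126371, chromosome 6) stood in A673 at 5.84 with siDKK2, 5.99 with siITM2A and 5.72 with control, and in SK-N-MC at 7.16, 6.76 and 6.54. The highest A673 array lay below the lowest SK-N-MC array. The difference was -0.97 ± 0.13, or 1.96-fold lower in A673 (limma, adjusted p = 0.000765). A673 thus had the higher CCND1 value, and SK-N-MC the higher CCND2 and CCND3 values, on every array.

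The kinases differed from each other in how they split the lines. CDK6 (probe set 8140955, chromosome 7) stood in A673 at 4.79 with siDKK2, 4.19 with siITM2A and 4.92 with control, and in SK-N-MC at 3.76, 3.44 and 3.77. It was 1.97-fold higher in A673 (0.98 ± 0.12, limma, adjusted p = 0.000344), with no overlap. The SK-N-MC values are close to the array medians. CDK4 (probe set 7964522, chromosome 12) stood in A673 at 9.34 with siDKK2, 8.90 with siITM2A and 8.94 with control, and in SK-N-MC at 9.40, 8.89 and 9.24. Its groups overlapped almost entirely. The difference was -0.11 ± 0.11, with a 95% interval of -0.37 to 0.14 (limma, adjusted p = 0.551).

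Among the inhibitors, CDKN2A and CDKN1A separated the lines in opposite directions. CDKN2A (probe set 8160441, chromosome 9), the gene of p16 and ARF whose starts are shown above, stood in A673 at 3.36 with siDKK2, 3.48 with siITM2A and 3.52 with control, and in SK-N-MC at 7.46, 7.35 and 7.39. The lines were more than 3 log2 units apart on every array. The difference was -3.94 ± 0.11, 15.4-fold lower in A673 (limma, adjusted p = 2.0e-07), rank 45 of 18417 by size. As for CCND2, the A673 values lay near the array medians and were not shown to be above background, so the fold may be understated. CDKN1A (probe set 8119088, chromosome 6), the p21 gene, stood in A673 at 5.68 with siDKK2, 5.81 with siITM2A and 5.63 with control, and in SK-N-MC at 3.70, 4.21 and 3.96. All A673 arrays lay above all SK-N-MC arrays, and the difference of 1.75 ± 0.12 is 3.37-fold higher in A673 (limma, adjusted p = 1.4e-05).

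The neighbours of CDKN2A on the short arm of chromosome 9 differed far less. MTAP, a purine salvage enzyme gene next to the locus, averaged 5.04 (A673) and 5.59 (SK-N-MC), a difference of -0.55 ± 0.11 (limma, adjusted p = 0.00476), and was the 1 of 7 listed neighbours that passed (14.3%, beside 14.7% of all genes called lower). CDKN2B, the adjoining gene of the inhibitor p15, stood at 3.88 to 3.92 in A673 and 3.90 to 3.98 in SK-N-MC, near the array medians in both. DMRTA1 lay at 3.82 to 3.89 in A673 and 3.67 to 4.13 in SK-N-MC. In both lines CDKN2B and DMRTA1 averaged below the median level of all genes (4.04). Background was not measured, so whether these 2 probe sets could show a lower A673 value is not known. FOCAD averaged 6.69 (A673) and 6.50 (SK-N-MC), MLLT3 5.04 and 5.16, KLHL9 4.65 and 4.34, and ELAVL2 2.07 and 2.24. Copy number was not measured, and its part in the CDKN2A difference was not tested.

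CDKN1B and RB1 had overlapping or nearly touching values in the lines and did not pass the test. CDKN1B (probe set 7954029, chromosome 12), the p27 gene, stood in A673 at 5.66 with siDKK2, 5.67 with siITM2A and 5.94 with control, and in SK-N-MC at 6.07, 6.14 and 5.84. The order of the lines depended on the siRNA, A673 being the lower line with both knock-downs and the higher one with control. Its difference was -0.26 ± 0.14, with a 95% interval of -0.58 to 0.05 (limma, adjusted p = 0.214), and became -0.45 (adjusted p = 0.0379) when either control array was left out. RB1 (probe set 7969017, chromosome 13), whose product is the substrate of the cyclin D kinases, stood in A673 at 6.21 with siDKK2, 6.27 with siITM2A and 6.10 with control, and in SK-N-MC at 6.11, 6.09 and 6.11, a difference of 0.09 ± 0.11 (95% interval -0.16 to 0.33, limma, adjusted p = 0.642).

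**Figure D2:**
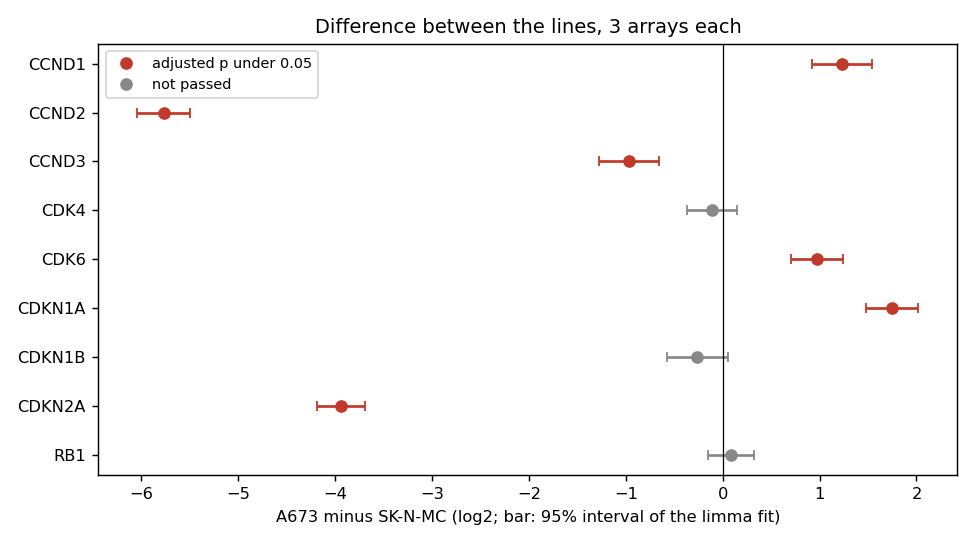
Fitted difference of A673 minus SK-N-MC on the log2 scale (x axis) for each of the 9 members (y axis), from 3 arrays per line, with 95% intervals of the limma fit as bars and red for an adjusted p under 0.05. CCND2 at -5.77 and CDKN2A at -3.94 lie far from 0, and the intervals of CDK4, CDKN1B and RB1 include 0.

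Genes that work beside the members also split the lines. Of 25 listed G1/S partners (among them the E cyclins, CDK2, E2F and DP factors, pocket proteins, other inhibitors and parts of ubiquitin ligases), 2 (8%) passed as higher and 12 (48%) as lower in A673, beside 13.8% and 14.7% of all genes, with a median difference of -0.27 beside -0.02 over all genes. The list was chosen with earlier results of these data known, so these shares are no independent check. CCNE2, an E cyclin that activates CDK2 after the D cyclins have acted, averaged 4.31 (A673) and 6.27 (SK-N-MC) (-1.96 ± 0.20, limma, adjusted p = 0.000139), and CCNE1 averaged 4.71 and 5.72 (limma, adjusted p = 0.000433). TFDP1, the DNA-binding partner of the E2F factors, averaged 7.96 and 8.97, and SKP2, which marks p27 for degradation, 7.64 and 8.35; both passed as lower in A673.

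The E2F target genes had a median difference close to that of all genes. Of 22 analysed, 2 (9.09%) passed as higher and 6 (27.3%) as lower in A673, beside the same 13.8% and 14.7% of all genes, with a median of -0.01. GINS2, a part of the replicative helicase, averaged 6.65 (A673) and 5.27 (SK-N-MC), while CDC6, which loads that helicase, averaged 7.21 and 8.20 and the helicase subunit gene MCM3 7.76 and 8.49.

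CCND2 and CDKN2A, the members with the widest range over the 6 arrays, were set against 3068 other genes with a range of at least 1. The genes most like CCND2 by Pearson's r over 6 arrays were ARHGAP10, HLF and CDKN2A itself, at r = 0.998 for each. Those most like CDKN2A were MARCHF6 (0.999), ADGRV1 (0.999) and LYPD1 (0.999). These values describe a step between 2 lines that many genes share: 114 genes exceeded an r of 0.99 with CCND2 and 133 with CDKN2A.

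Within the lines, neither siRNA changed a member past the threshold. With siDKK2 against control, 0 of 9 members passed (limma with line as a block, 0 at an unadjusted p under 0.05), where 0.0109% of all genes passed, 2 of 18417. DKK2 itself, at -1.21, did not pass there (limma, adjusted p = 0.209), so the threshold missed the target of this siRNA. With siITM2A against control 0 of 9 passed (2 at an unadjusted p under 0.05), again beside 0.0109% of all genes. With siDKK2 against siITM2A 0 of 9 passed (2 at an unadjusted p under 0.05), beside 0.0163%. The shares of all genes at an unadjusted limma p under 0.05 were 8.68%, 6.91% and 8.32% in these 3 comparisons. Only 2 arrays, 1 per line, stand behind each siRNA group, and both comparisons with control use the same control arrays. The 95% intervals of the 9 fitted differences reached from -0.74 to 0.75 for siDKK2 against control, from -0.86 to 0.62 for siITM2A against control and from -0.66 to 0.79 for siDKK2 against siITM2A. Of these 27 intervals, 4 did not include 0, those of CCND2 and CDK6 with siITM2A against control and of CDK4 and CDK6 between the knock-downs, before any adjustment. The count of all genes called with siDKK2 moved from 2 to 0 without the A673 siDKK2 array or either siITM2A array, to 3 without the control array of A673, to 45 when that of SK-N-MC was left out and to 60 on omission of siDKK2 in SK-N-MC. With siITM2A it was 0 without either siITM2A array, and 4 on omission of the control in SK-N-MC. Between siDKK2 and siITM2A it was 18 without either control array, 50 on omission of siDKK2 in SK-N-MC, 2 on its omission in A673, and 1 without either siITM2A array. The count of members was 0 in all of these fits.

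By size, 0 of 9 members reached a 1.5-fold difference on the same side of control in each line with siDKK2, where 0.478% of all genes did, and 0 with siITM2A, where 0.255% did. In single lines with siDKK2, 0 members (A673) and 2 members (SK-N-MC) reached 1.5-fold, beside 5.03% and 2.89% of all genes. With siITM2A, 2 members (A673) and 0 members (SK-N-MC) did, beside 3.28% and 2.87%. These are differences between single arrays, with no replicate check.

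**Figure D3:**
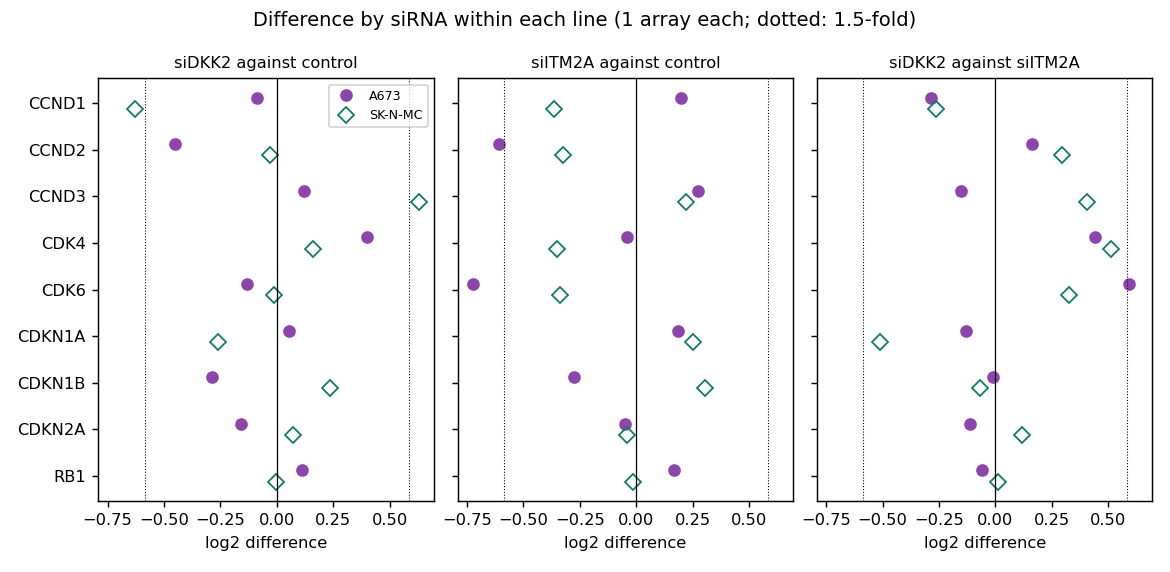
Log2 difference (x axis) of each member (y axis) within A673 (filled circles) and SK-N-MC (open diamonds) for siDKK2 against control, siITM2A against control and siDKK2 against siITM2A, each from 1 array per line and siRNA, with 1.5-fold dotted. No member passes the dotted lines on the same side in both lines; CCND1 at -0.63 and CCND3 at 0.63 pass with siDKK2 in SK-N-MC, CDK6 at -0.72 and CCND2 at -0.61 with siITM2A in A673, and CDK6 at 0.59 between siDKK2 and siITM2A in A673.

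None of the 3 D cyclins passed with either siRNA, and the line with the larger value was not the same for each. CCND1 differed by -0.09 (A673) and -0.63 (SK-N-MC), which fits to -0.36 ± 0.17 (n = 2 lines, limma, adjusted p = 0.600). CCND3 differed by 0.12 (A673) and 0.63 (SK-N-MC) (0.37 ± 0.16, limma, adjusted p = 0.577). CCND2 differed by -0.45 in A673, where it lies near the array median, and by -0.03 in SK-N-MC, where it is high (-0.24 ± 0.15, limma, adjusted p = 0.688). With siITM2A, CCND1 differed by 0.20 (A673) and -0.37 (SK-N-MC), CCND3 by 0.27 and 0.22, and CCND2 by -0.61 and -0.32. The CCND2 value with siITM2A, -0.47 ± 0.15, had an unadjusted p under 0.05 and an adjusted p of 0.684.

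Both kinases had higher values with siDKK2 than with siITM2A in each line. In this comparison 3 of 9 members (33.3%) were higher in both lines and 3 (33.3%) lower in both, beside 27.4% and 27.5% of all genes. CDK4 was 0.44 higher with siDKK2 than with siITM2A in A673 and 0.51 higher in SK-N-MC (0.48 ± 0.14, limma, adjusted p = 0.436), and CDK6 0.59 and 0.33 higher (0.46 ± 0.14, limma, adjusted p = 0.480). Neither passed. Against control, CDK4 differed by 0.40 (A673) and 0.16 (SK-N-MC) with siDKK2, and by -0.04 and -0.35 with siITM2A. CDK6 differed by -0.13 and -0.01 with siDKK2 and by -0.72 and -0.34 with siITM2A (-0.53 ± 0.14, limma, adjusted p = 0.670). Thus CDK6 had its lowest value with siITM2A in each line, and CDK4 its highest with siDKK2 in each line.

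The promoter of CDK4 is shown because CDK4 had the smallest unadjusted p of the members between the knock-downs. Its 250 bases before the start, from RefSeq on GRCh38.p14, minus strand, are printed with the E-box letters CACGTG in capitals, the core that MYC and related factors bind. The motif reads the same on both strands.

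CDK4, chr12:57752311-57752560: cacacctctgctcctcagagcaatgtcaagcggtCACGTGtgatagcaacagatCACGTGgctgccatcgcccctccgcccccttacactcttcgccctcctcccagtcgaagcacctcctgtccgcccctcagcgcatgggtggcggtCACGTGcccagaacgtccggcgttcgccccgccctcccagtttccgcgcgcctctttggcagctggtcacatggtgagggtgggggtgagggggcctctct

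The window holds 3 matches, and 6.34% of the 35116 promoter windows hold at least 1. Each window of CDK6, which was also higher with siDKK2 than with siITM2A, holds 0. The share with 3 or more was not counted. The match describes the letters alone, and no binding was measured.

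None of the inhibitors passed with either siRNA, nor did RB1. CDKN1A differed with siDKK2 by 0.05 (A673) and -0.26 (SK-N-MC), and with siITM2A by 0.18 and 0.25. CDKN1B differed with siDKK2 by -0.29 (A673) and 0.24 (SK-N-MC), and with siITM2A by -0.28 and 0.31, opposite directions in the lines with each siRNA against the same control arrays. CDKN2A differed with siDKK2 by -0.16 (A673) and 0.07 (SK-N-MC), and with siITM2A by -0.05 and -0.04. RB1 differed with siDKK2 by 0.11 and -0.0038 and with siITM2A by 0.17 and -0.01. Between siDKK2 and siITM2A, CDKN1A differed by -0.13 (A673) and -0.51 (SK-N-MC), which fits to -0.32 ± 0.14 (limma, adjusted p = 0.602). For CDKN2A and CDKN1A every difference between the lines was larger than any of these by siRNA.

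The genes downstream of the switch gave no calls by siRNA either. In each of the 3 siRNA comparisons, limma called 0 of 25 G1/S partners and 0 of 22 E2F targets. With siDKK2 against control, 2 and 1 of them had an unadjusted p under 0.05, with siITM2A 4 and 1, and between the knock-downs 4 and 3, beside 8.68%, 6.91% and 8.32% of all genes in the 3 comparisons. Between siDKK2 and siITM2A, 13 of 22 E2F targets (59.1%) had higher values with siDKK2 in both lines and 1 had lower values, beside 27.4% and 27.5% of all genes. Their median difference was 0.20 (A673) and 0.14 (SK-N-MC), beside -0.0027 and 0.0020 over all genes. The E2F target list was also chosen with earlier results of these data known. GINS2 differed by 0.63 (A673) and 0.89 (SK-N-MC), CDC45, another part of the helicase, by 0.59 and 0.30, and MCM2 by 0.29 and 0.49, none past the threshold.

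Against control, E2F target medians lay on opposite sides of 0 in the lines with siDKK2 and below 0 in both with siITM2A. With siDKK2 their median difference was 0.21 (A673) and -0.11 (SK-N-MC). With siITM2A it was -0.02 (A673) and -0.21 (SK-N-MC), and 12 of 22 (54.5%) had lower values in both lines with 0 higher in both, beside 30.7% and 21.2% of all genes. Among G1/S partners, the E2F-binding pocket protein gene RBL2, a relative of RB1, was 0.52 higher with siDKK2 than with siITM2A in each line (limma, adjusted p = 0.373). E2F4 was also higher, by 0.34 (A673) and 0.43 (SK-N-MC). CCNE2, at -0.63 and -0.41, and E2F3, at -0.30 and -0.53, went the other way. None of these passed the threshold.

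**Figure D4:**
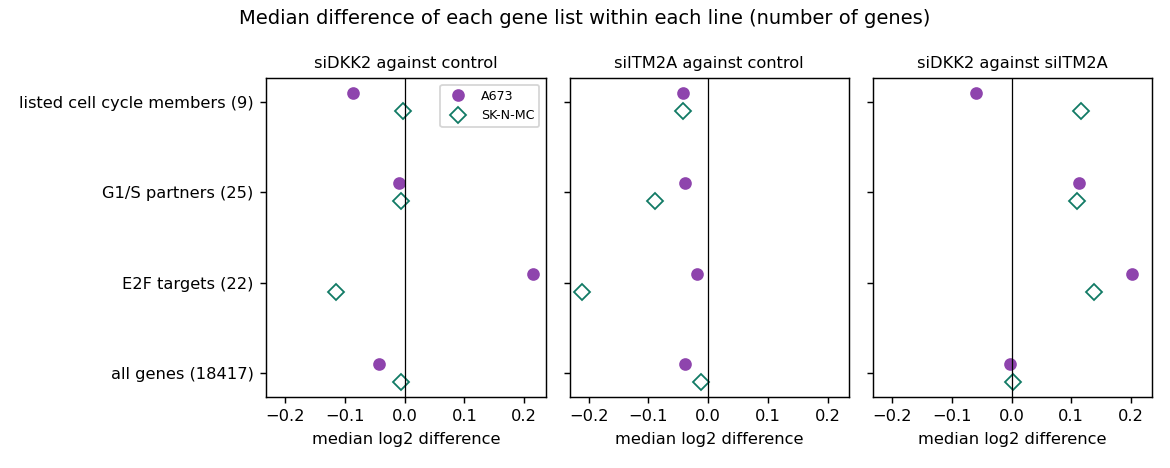
Median log2 difference (x axis) within A673 (filled circles) and SK-N-MC (open diamonds) of the 9 members, of the lists of partner and target genes and of all genes (y axis, number of genes in brackets), for each siRNA comparison. E2F targets lie at 0.20 and 0.14 between siDKK2 and siITM2A and on opposite sides of 0, at 0.21 and -0.11, for siDKK2 against control.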

How the data were processed

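Total RNA was amplified, labelled and read on 6 Affymetrix whole-transcript arrays. The deposited values are log2 values per probe set, made by the authors with Affymetrix Expression Console and RMA per the submitters' processing notes; the log2 scale was read from their range of 1.02 to 13.4. For software version, settings and genome build: not given in the sources used here. RMA evens out the arrays and compresses dim differences.

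Of 33297 probe sets, 19460 had 1 symbol in the platform annotation, which can be old, and 1754 several; 12083 were unlisted. Entrez numbers of 19429 were found in RefSeq's gene table, with 0 symbols altered. The brightest probe set per gene was kept. All 6 columns were matched to samples.

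limma 3.58.1 (lmFit, eBayes, R 4.3.3) was fitted over 18417 genes with siRNA and line as terms, 2 residual and 6.28 prior degrees of freedom, and Benjamini-Hochberg adjustment at 0.05. It was tested on simulated data. Per the labels, cell line pairs the arrays of different siRNAs, and each line and siRNA has 1 array, so p-values measure the spread between these arrays only, and their number limits precision. Members and lists were chosen with earlier results of these data known. Named genes were all members, the 2 siRNA targets and the 3 genes most like the 2 members of widest range. Up to 4 genes per list and comparison were named by size, those past the threshold first. A list of 18 analysed p53 targets was also run and is not described above. Of these, 5 (27.8%) passed as higher and 4 (22.2%) as lower in A673, beside 13.8% and 14.7% of all genes. In each siRNA comparison 0 of them passed. CDKN2B, DMRTA1, MLLT3 and LUM were added to the line comparison after their values were seen. Alternatives changed the probe set, filter, normalization, moderation, block and arrays. RefSeq promoters (GRCh38.p14) were found for 8 of 10 members, CCND1 and CCND2 not among them.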

Additional observations from a re-analysis of the deposited data

Results flagged for a closer look

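CDKN1B with siITM2A against control differed by -0.28 in A673 and by 0.31 in SK-N-MC, opposite directions of at least 0.25 in the lines under the same siRNA. Each value is a difference of 1 array from 1 control array, and the difference between the lines was not tested. With siDKK2 it differed by -0.29 and 0.24, the second just below that size, from the same control arrays.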

How the results depend on the processing

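The 6 members that differed between the lines kept their direction and their call in all 78 values over 13 alternatives, with adjusted p-values up to 0.00694. The count of members called by siRNA stayed at 0 in every alternative run. The values that turned sign belong to members that did not pass, 25 of 378 in the siRNA comparisons. With quantile normalization CDKN1B (0.022) and CDKN2A (0.027) turned with siDKK2 and CDKN2A (0.025) with siITM2A. With median centring CDKN1B (0.0081) turned with siDKK2 and RB1 (0.0071) between the knock-downs. Leaving out each array in turn gave, with siDKK2, -0.20 to 0.055 for CDK6, -0.28 to 0.070 for CDKN1A, -0.30 to 0.25 for CDKN1B, -0.16 to 0.072 for CDKN2A and -0.021 to 0.13 for RB1. With siITM2A it gave -0.36 to 0.19 for CCND1, -0.26 to 0.29 for CDKN1B and -0.10 to 0.015 for CDKN2A. Between siDKK2 and siITM2A it gave -0.14 to 0.39 for CCND3, -0.20 to 0.12 for CDKN1B, -0.11 to 0.12 for CDKN2A and -0.087 to 0.040 for RB1. A fit without an array rests the comparison on fewer samples. The count of all genes called was 0 to 60 with siDKK2, 0 to 4 with siITM2A and 1 to 50 between them when an array was left out, and 0 in all 3 without the line block. With siDKK2 it was 7 with an intensity trend and 0 with only the groups compared; between siDKK2 and siITM2A it was 16 with the trend, 18 with only the groups compared and 6 among genes at or above the median level; the cause was not tested.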
